A study of Mus musculus with 23 samples.

Results

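The genes described here are *Srebf2*, *Hmgcs1*, *Idi1*, *Fdft1*, *Sqle*, *Lss*, *Dhcr7* and *Insig1*, 8 genes of cholesterol synthesis and of its control by SREBP2. They were chosen by name, through the Ensembl identifiers that the GRCm39 annotation gives to these symbols, and make up 8 of the 56941 genes in the count tables. RNA was measured in continental cultures of primary hippocampal neurons from P0 pups homozygous for Nedd8cKO, in which *Nedd8*, the gene of a ubiquitin-like protein that is attached to cullins and other proteins, is flanked by LoxP sites around the second and the third of its exons. Every culture carried the floxed alleles and received a lentivirus, which expressed either RFP tagged CRE recombinase (CRE, 12 libraries) or RFP alone (RFP, 11 libraries) from the Synapsin1 promoter. RNA was taken after 12 days in culture according to the labels, while the study's Methods give a day more. Recombination is therefore limited to infected cells in which that neuronal promoter is active, no culture without virus or without floxed alleles was sequenced here, and the study states that the sex of the newborn pups was left unchecked. The number behind Cre or RFP in a library name, 1 to 3, was read as the culture. Neither the labels nor the paper state this in words, so p-values measure the spread between libraries, part of which may be technical.

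Cholesterol is made from acetyl-CoA by way of HMG-CoA, mevalonate, the isoprenoid diphosphates, squalene and lanosterol. The transcription factor SREBP2, the product of *Srebf2*, sits in the endoplasmic reticulum as a precursor bound to SCAP. When sterols are scarce, SCAP carries it to the Golgi, where proteases release the part that enters the nucleus and activates the genes of this pathway, among them *Srebf2* itself. When sterols are plentiful, the INSIG proteins hold SCAP back. In the brain cholesterol is made locally, since lipoproteins of the blood do not cross the blood-brain barrier, and both neurons and glia carry the pathway.

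SREBP2 binds sterol regulatory elements, usually beside sites for NF-Y (CCAAT) and Sp1 (GGGCGG). The promoters of *Hmgcs1* and *Srebf2* are shown because they hold the letters TCACCCCA, a core of such elements, those of *Lss*, the gene of the 8 with the lowest ratio of CRE to RFP, and of *Insig1*, the gene with the weakest difference, because they differ in response. Each run is the 250 bases before the transcription start in the RefSeq promoter table of GRCm38.p6, found once on its chromosome of GRCm39 by exact match, 5′ to 3′ on the plus strand of the genome. Capitals mark TCACCCCA, CCAAT and GGGCGG on either strand, so that the last of these also appear as ATTGG and CCGCCC. No match overlapped another. The runs of *Srebf2*, *Lss* and *Insig1* end inside the gene as annotated for GRCm39, whose start lies further upstream. Distances given below count from the RefSeq start.
Hmgcs1 (chr13:120151637-120151886): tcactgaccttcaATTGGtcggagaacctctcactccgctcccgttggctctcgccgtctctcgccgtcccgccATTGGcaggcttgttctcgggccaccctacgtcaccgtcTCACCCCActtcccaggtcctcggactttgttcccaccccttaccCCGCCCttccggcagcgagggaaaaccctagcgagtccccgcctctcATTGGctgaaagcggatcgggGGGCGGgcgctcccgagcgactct
Srebf2 (chr15:82031220-82031469): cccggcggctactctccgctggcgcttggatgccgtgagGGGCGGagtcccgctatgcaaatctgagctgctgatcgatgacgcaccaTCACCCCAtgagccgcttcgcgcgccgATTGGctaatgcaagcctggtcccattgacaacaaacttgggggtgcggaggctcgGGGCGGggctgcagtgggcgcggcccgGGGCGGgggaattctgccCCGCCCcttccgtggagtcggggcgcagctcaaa
Lss (chr10:76367189-76367438): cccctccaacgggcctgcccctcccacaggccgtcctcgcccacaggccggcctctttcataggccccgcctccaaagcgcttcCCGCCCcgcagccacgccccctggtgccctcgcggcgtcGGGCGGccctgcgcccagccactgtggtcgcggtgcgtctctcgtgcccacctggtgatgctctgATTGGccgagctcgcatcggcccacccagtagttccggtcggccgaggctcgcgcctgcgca
Insig1 (chr5:28276160-28276409): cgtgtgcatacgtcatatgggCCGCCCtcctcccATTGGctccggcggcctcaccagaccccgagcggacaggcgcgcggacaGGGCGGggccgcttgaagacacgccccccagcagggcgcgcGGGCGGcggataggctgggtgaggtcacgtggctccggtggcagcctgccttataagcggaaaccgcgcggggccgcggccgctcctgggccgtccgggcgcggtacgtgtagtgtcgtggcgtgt

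The core TCACCCCA began 137 bases before the start of *Hmgcs1* and 162 bases before that of *Srebf2*. It was found in 2 of the 6 genes that had an entry in the table and in 1.34% of all 32851 promoters there. CCAAT was found in all 6 of these genes, *Dhcr7* by 1 of its listed starts, and in 33.9% of all promoters. GGGCGG was likewise found in all 6 and in 32.7% of all promoters. *Fdft1* and *Sqle* had no entry. Among the other enzymes of the pathway, 13 had an entry, of which 11 held CCAAT, 12 held GGGCGG and 0 held TCACCCCA. These are matches of letters in a window and not sites of binding.

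CRE and RFP were compared in the 21 libraries that the study's abundance table holds, 11 CRE and 10 RFP, which held from 7430401 to 17112815 counts each. The study's Methods remove another pair, Nedd8Cre1-3 and Nedd8Cre3-3, so Nedd8Cre1-3 is among the 21 here although Methods leave it out. *Nedd8* ranged from 44.1 to 76.0 CPM (counts relative to the library total) in RFP and from 5.92 to 18.0 CPM in CRE libraries, with no overlap. Among these libraries Nedd8Cre1-3, with 0.261% of its counts on mitochondrial genes, and Nedd8RFP2-4, with 3.44%, stood apart, as did Nedd8Cre3-3 outside them with 1.83%, while the remaining 20 held 6.997% to 11.1%. Their counts also depended on GC content, with a Spearman correlation across genes of 0.742 in Nedd8Cre1-3, 0.401 in Nedd8RFP2-4 and 0.541 in Nedd8Cre3-3 against -0.322 to 0.105 in those 20. Of the pair outside the 21, Nedd8Cre3-3 held 1546796 counts in all and Nedd8RFP3-2 24.2% of its counts on *Rn18s-rs5*. Results that rest on these 4 are given with the 19 libraries left without them. Neuronal markers were present in every library, but so were those of astrocytes and of the oligodendrocyte lineage, and in such mixed cultures fewer cells of a type and less RNA per cell cannot be told apart.

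All 8 genes had a lower mean in CRE than in RFP libraries, and 7 of them were lower at an adjusted p under 0.05 (quasi-likelihood test of edgeR, adjusted after Benjamini-Hochberg for 14488 genes), where 13.8% of all genes tested were called lower. None was called higher, against 16.4% of all genes. *Lss* fell by 60.4%, the most of the 8, and *Insig1* fell by 17.9%, the least. The median log2 fold change of the 8 was -0.79 beside 0.02 over all genes tested. For *Hmgcs1* and *Lss* every CRE library lay below every RFP library, as for 2.08% of all genes tested, while 2.64% had every CRE library above. *Srebf2* was the gene that missed the threshold, with 1 CRE library far above the rest, and in the 21 libraries that Methods keep all 8 were called lower. The study's own filter asks for a log2 fold change beyond 1.3 in either direction at a -log10 p-value over 6, without naming an adjustment. Of the 8 only *Lss* passed it with the adjusted p, as did 1.39% of all genes, and again only *Lss* with the unadjusted p, as did 2.49%.

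**Figure D1:**
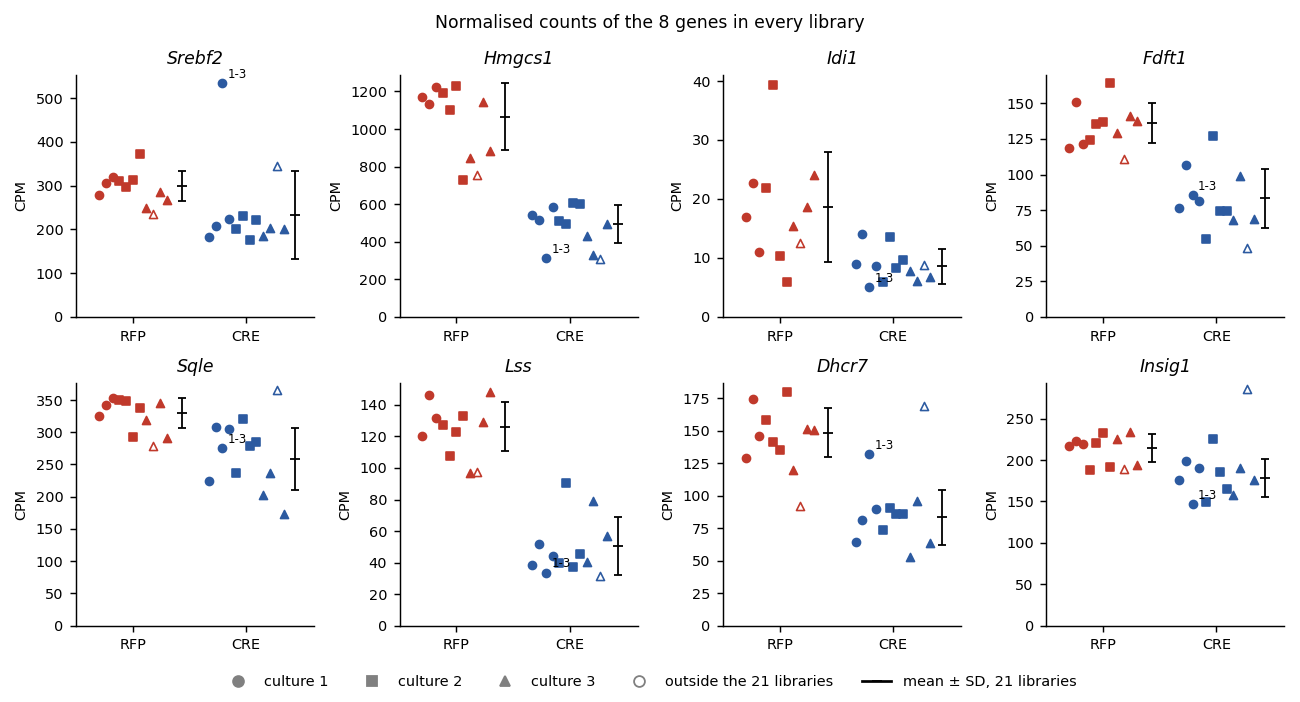
CPM of each gene (linear axes from 0) in all 23 libraries, with 1 point per library shaped by culture, open where the library lies outside the 21 compared, and the mean ± SD of the 21 in black. For *Hmgcs1* and *Lss* every filled CRE point lies below every RFP point, while *Srebf2* has a single CRE point, Nedd8Cre1-3, above all of RFP.

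*Srebf2* (ENSMUSG00000022463, chr15:82031382-82093201, plus strand) encodes the SREBP2 precursor. Its level ran from 248 to 372 CPM in RFP libraries (median 302, mean 299 ± 33.9 SD, n = 10). In CRE libraries it ran from 176 to 534 CPM (median 203, mean 233 ± 101 SD, n = 11). The library at 534 CPM was Nedd8Cre1-3, and the other 10 CRE libraries, at 231 CPM or less, lay below every RFP library. The log2 fold change was -0.38 ± 0.16 SE with an adjusted p of 0.0684 (edgeR). In the libraries kept by Methods, without Nedd8Cre1-3, it was -0.53 with an adjusted p of 2.8e-06 (edgeR). Over the 19 libraries it was -0.54 with an adjusted p of 4.8e-07 (edgeR), and with the trend of each library with GC content removed it was -0.53 in the 21 libraries (edgeR adjusted p = 1.9e-06). Without culture 2, which keeps Nedd8Cre1-3, it was -0.20 (edgeR adjusted p = 0.628). The exons of *Srebf2* are 57.9% G and C, more than those of the other 7 genes.

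*Insig1* (ENSMUSG00000045294, chr5:28276315-28283668, plus strand) encodes an endoplasmic reticulum protein that retains SCAP and is itself a target of SREBP2. It ran from 188 to 235 CPM in RFP (median 220, mean 215 ± 17.2 SD) and from 147 to 225 CPM in CRE libraries (median 176, mean 178 ± 23.2 SD). The groups overlapped, with 7 of 11 CRE libraries below every RFP library. At a log2 fold change of -0.29 ± 0.09 SE (edgeR adjusted p = 0.0163) its fall was the smallest of the 8. It lost the threshold over all 23 libraries (log2 fold change -0.18, edgeR adjusted p = 0.204), where Nedd8Cre3-3 held 286 CPM, and whenever 1 culture was left out.

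*Hmgcs1* (ENSMUSG00000093930, chr13:120151915-120170470, plus strand) encodes the cytosolic synthase that forms HMG-CoA on the way to mevalonate. It was the most abundant of the 8 per length, at 260 ± 43.5 CPM per kb of the canonical transcript in RFP libraries. In CPM it ran from 730 to 1229 in RFP (median 1138, mean 1065 ± 178 SD) and from 314 to 605 in CRE libraries (median 512, mean 493 ± 100.1 SD). Every CRE library lay below every RFP library. The log2 fold change was -1.13 ± 0.13 SE, so that it fell by 54.3% (edgeR adjusted p = 2.0e-07), and stayed between -1.22 and -0.97 under the 17 alternatives.

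*Idi1* (ENSMUSG00000058258, chr13:8935537-8942487, plus strand) encodes the isomerase that turns isopentenyl diphosphate into dimethylallyl diphosphate. It was the least abundant of the 8 per length, at 7.19 ± 3.61 CPM per kb in RFP libraries, with 37 counts in the lowest of the 21 libraries. It ran from 5.996 to 39.4 CPM in RFP (median 17.8, mean 18.6 ± 9.34 SD) and from 5.04 to 14.1 CPM in CRE libraries (median 8.28, mean 8.61 ± 2.96 SD). The lowest RFP library was Nedd8RFP2-4, the groups overlapped, and 7 of 10 RFP libraries lay above every CRE library. The log2 fold change of -1.13 ± 0.26 SE matched that of *Hmgcs1* in size with a wider error (edgeR adjusted p = 0.00136).

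*Fdft1*, *Sqle* and *Lss* make the sterol skeleton. *Fdft1* (ENSMUSG00000021273, chr14:63382189-63417027, minus strand) encodes squalene synthase, which commits farnesyl diphosphate to sterols. It ran from 118 to 164 CPM in RFP (median 136, mean 136.0 ± 14.1 SD) and from 54.5 to 127 CPM in CRE libraries (median 76.8, mean 83.3 ± 20.5 SD). Only Nedd8Cre2-2, at 127 CPM, reached into the RFP range. CRE differed from RFP by -0.73 ± 0.12 SE on the log2 scale (edgeR adjusted p = 5.7e-05). Of its annotated exon bases, 24.8% lie opposite exons of *Ctsb*, and the strand setting of the counting is not given in the sources used here, so some of its counts may belong to that gene.

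*Sqle* (ENSMUSG00000022351, chr15:59186869-59203043, plus strand) encodes squalene epoxidase, a rate-limiting enzyme of the sterol branch. It ran from 290.4 to 353 CPM in RFP (median 340, mean 330.3 ± 23.2 SD) and from 173 to 321 CPM in CRE libraries (median 276, mean 259 ± 47.5 SD). The groups overlapped, with 8 of 11 CRE libraries below every RFP library. Its log2 fold change was -0.37 ± 0.10 SE (edgeR adjusted p = 0.00755). It missed the threshold over all 23 libraries (log2 fold change -0.29, edgeR adjusted p = 0.0524), where Nedd8Cre3-3 held 366 CPM, and without culture 2 (log2 fold change -0.42, edgeR adjusted p = 0.079).

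*Lss* (ENSMUSG00000033105, chr10:76367298-76392976, plus strand) encodes lanosterol synthase, which closes the rings. It ran from 96.9 to 148 CPM in RFP (median 128, mean 126 ± 15.7 SD) and from 33.5 to 90.6 CPM in CRE libraries (median 44.3, mean 50.6 ± 18.3 SD). No CRE library reached the RFP range, and the highest of them were Nedd8Cre2-2 at 90.6 CPM and Nedd8Cre3-2 at 78.9 CPM. The log2 fold change of -1.34 ± 0.16 SE (edgeR adjusted p = 3.7e-07) had a 95% interval from -1.64 to -1.03. That of *Insig1* ran from -0.46 to -0.11, so the size of the fall differed between genes of the pathway.

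*Dhcr7* (ENSMUSG00000058454, chr7:143376740-143402149, plus strand) encodes the reductase of the last step to cholesterol in one branch of the pathway. It ran from 120 to 180.3 CPM in RFP (median 148, mean 149 ± 18.98 SD) and from 53.2 to 132 CPM in CRE libraries (median 85.8, mean 83.3 ± 20.9 SD). The CRE library at 132 CPM was again Nedd8Cre1-3, and the other 10 lay below every RFP library. On the log2 scale the difference was -0.86 ± 0.13 SE (edgeR adjusted p = 1.2e-05). Nedd8Cre3-3, outside the 21 libraries, held 169 CPM.

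Per kb of transcript, the order in RFP libraries was *Hmgcs1*, *Sqle* (118 ± 8.28 CPM per kb), *Insig1* (78.4 ± 6.27), *Srebf2* (59.0 ± 6.68), *Dhcr7* (50.3 ± 6.42), *Fdft1* (39.2 ± 4.05), *Lss* (19.8 ± 2.45) and *Idi1*. The neighbours *Srebf2* and *Dhcr7* lay within the sum of their SD of each other, and the other neighbours in this order did not. In CRE libraries *Hmgcs1* still had the highest mean, at 120 ± 24.4 CPM per kb beside 92.1 ± 16.9 for *Sqle*, within the sum of their SD.

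With CRE and RFP libraries of the same number set against each other, the difference had the same sign in each of the 3 cultures for all 8 genes. Neither the labels nor the paper state that same-numbered CRE and RFP libraries share a culture. Between the means of log2 CPM the difference ran from -1.67 for *Lss* in culture 1 to -0.21 for *Insig1* in culture 2 and for *Srebf2* in culture 1. Without Nedd8Cre1-3 and Nedd8RFP2-4 the weakest difference was -0.22 and all 24 remained below 0. The interaction of condition with culture reached no adjusted p under 0.977 for any of the 8 (edgeR), while 1 gene, 0.0069% of those tested, was called in all. At an unadjusted p under 0.05 the interaction also called 0 of the 8, the smallest p being 0.234 for *Sqle*, and 0 of the 8 were called over the 19 libraries. *Idi1* ran widest between cultures, from -1.45 in culture 3 to -0.76 in culture 2.

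**Figure D2:**
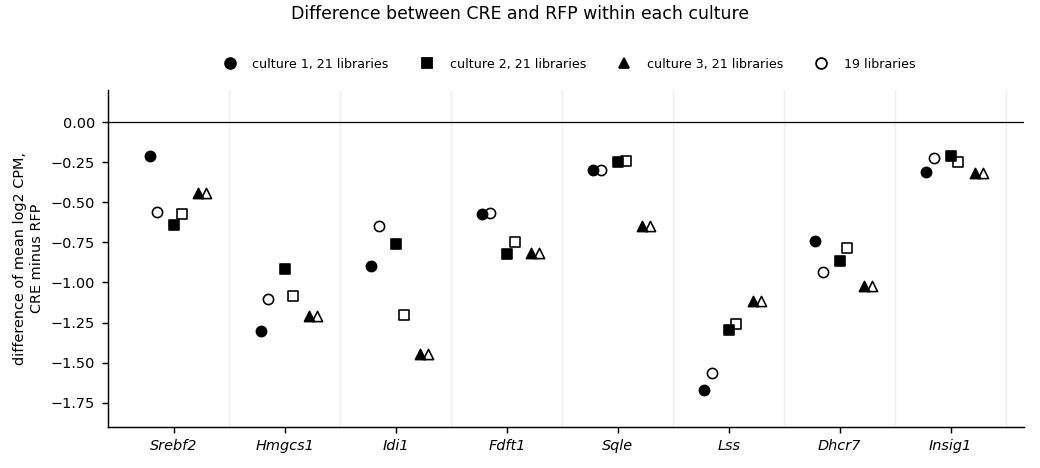
Mean log2 CPM of CRE minus that of RFP libraries with the same culture number. Points are filled for the 21 libraries and open for the 19 without the 4 that stood apart. All points lie below 0, and the *Srebf2* value of culture 1, -0.21, moves to -0.56 without Nedd8Cre1-3.

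The other enzymes of sterol synthesis, a list of 16, were lower in the same direction. All 16 were tested, 12 were called lower and 0 higher, beside 13.8% and 16.4% of all genes. Their median log2 fold change was -0.89. The falls were large in the mevalonate part. *Fdps*, which makes farnesyl diphosphate, went from 166 ± 20.3 CPM in RFP to 58.6 ± 18.0 CPM in CRE libraries (log2 fold change -1.52 ± 0.14 SE), and every CRE library lay below every RFP library. *Acat2*, whose enzyme joins acetyl-CoA units at the start, fell by 1.24 on the log2 scale, likewise without overlap. *Mvk*, *Pmvk* and *Mvd*, the kinases and the decarboxylase that follow, had log2 fold changes of -0.96, -0.96 and -1.10, and -1.21, -1.10 and -1.26 over the 19 libraries. For *Mvk* Nedd8Cre1-3 alone, at 56.9 CPM, did not lie below every RFP library, and for *Pmvk* and *Mvd* it was Nedd8Cre1-3 and Nedd8Cre3-2.

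After lanosterol the falls were less even. *Tm7sf2* (log2 fold change -1.26), *Nsdhl* (-1.08), *Hsd17b7* (-0.82), *Lbr* (-0.71), *Sc5d* (-0.56) and *Erg28* (-0.33) were called lower. *Cyp51*, the lanosterol demethylase, stood at 263 ± 30.7 CPM in RFP and 238 ± 72.2 CPM in CRE libraries (log2 fold change -0.16 ± 0.14 SE, edgeR adjusted p = 0.429), and *Ebp* at 12.8 ± 3.58 and 12.5 ± 3.26 CPM (log2 fold change -0.05 ± 0.19 SE, edgeR adjusted p = 0.864). Of the annotated exon bases of *Cyp51*, 21.1% lie opposite exons of *Akap9*, so some of its counts may belong to that gene. *Msmo1*, the sterol methyl oxidase, missed the threshold in the 21 libraries (log2 fold change -0.46, edgeR adjusted p = 0.076). It was called lower over the 19 libraries, at -0.40 (edgeR adjusted p = 0.0343), where 14 of the 16 enzymes were called lower. Together with the 8 genes above, 19 of 24 were called lower and 0 higher. Without culture 2, 6 of the 16 were still called lower, among them *Acat2*, *Fdps*, *Tm7sf2*, *Nsdhl* and *Hsd17b7*.

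**Figure D3:**
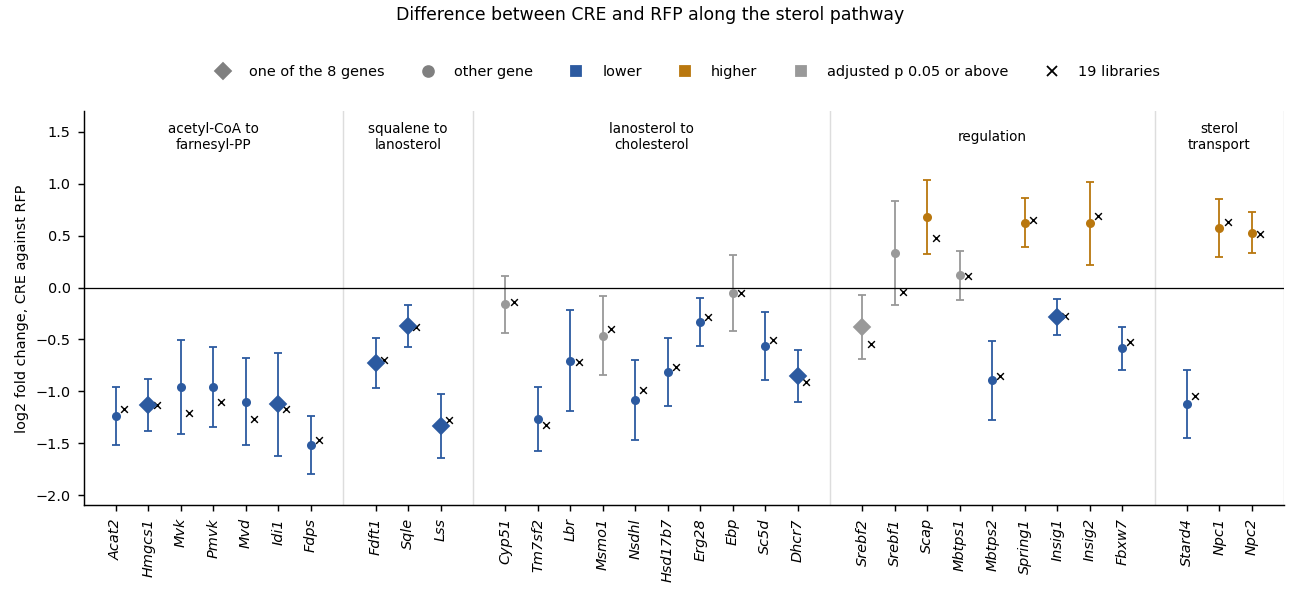
Log2 fold change of CRE against RFP for enzymes named in the text, in the order of the pathway, and for genes of its control and of sterol transport, with bars of the 95% interval, diamonds for the 8 genes and crosses for the estimate over 19 libraries. From *Acat2* to *Lss* every gene drawn lies below 0 and is called lower, whereas *Scap*, *Spring1*, *Insig2*, *Npc1* and *Npc2* are called higher.

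Of the 12 genes that process SREBP or sense sterols, 3 were called higher and 2 lower, shares near the 16.4% and 13.8% of all genes, with a median log2 fold change of 0.13. *Scap* went from 94.4 ± 11.4 CPM in RFP to 154 ± 81.1 CPM in CRE libraries (log2 fold change 0.68 ± 0.18 SE), of which Nedd8Cre1-3 held 394 CPM. Over the 19 libraries its log2 fold change was 0.48 (edgeR adjusted p = 2.0e-05). *Spring1*, which supports the protease that cuts SREBP first, was higher by 0.63 ± 0.12 SE on the log2 scale, and *Mbtps2*, which encodes the second protease, was lower by 0.89 ± 0.20 SE (log2 fold change -0.89). *Insig2*, the relative of *Insig1* that does not depend on SREBP2 in the same way, was higher at 61.5 ± 18.2 CPM in CRE against 39.6 ± 5.73 CPM in RFP libraries (log2 fold change 0.62 ± 0.21 SE), opposite in sign to *Insig1*. Its call was lost under 5 of the 17 alternatives. *Fbxw7*, the substrate receptor of a cullin ligase for the nuclear forms of SREBP, fell from 115 ± 17.9 to 77.9 ± 10.9 CPM without overlap (log2 fold change -0.59 ± 0.11 SE). *Srebf1* ranged from 48.0 to 90.4 CPM in RFP and from 50.8 to 332 CPM in CRE libraries, the highest again Nedd8Cre1-3, and was not called (log2 fold change 0.33 in the 21 and -0.04 in the 19 libraries, edgeR adjusted p = 0.351 and 0.819).

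Among 10 SREBP2 targets outside synthesis, 9 were tested, 2 were called lower and 2 higher, with a median log2 fold change of -0.16. Over all genes tested, 13.8% were called lower and 16.4% higher. *Stard4*, a carrier of cholesterol between membranes, fell from 173 ± 27.8 to 80.5 ± 27.6 CPM (log2 fold change -1.12 ± 0.17 SE), as much as the synthesis enzymes, and *Rdh11* fell by 0.68. *Npc1* and *Npc2*, which move cholesterol out of lysosomes, were both higher, by 0.58 ± 0.14 SE and 0.53 ± 0.10 SE on the log2 scale.

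The targets of SREBP1 in fatty acid synthesis were lower as well, with 10 of 12 called lower, 0 higher and a median log2 fold change of -0.62. For this and the next lists, the shares over all genes tested were 13.8% lower and 16.4% higher. *Acss2* (log2 fold change -0.94), *Fads2* (-0.94), *Acaca* (-0.78) and *Fads1* (-0.64) had every CRE library below every RFP library. *Scd1* (-0.78), *Gpam* (-0.69), *Scd2* (-0.60), *Fasn* (-0.59), *Elovl6* (-0.53) and *Acly* (-0.50) were called lower with overlap. *Elovl5* and *Me1* were not called. Of 14 genes of the LXR response, cholesterol export and oxysterols, 12 were tested, 3 were called lower (*Abcg4*, *Mylip* and *Lcat*, at -0.42, -0.76 and -1.33 on the log2 scale) and 0 higher. Over the 19 libraries 2 were called higher, *Abca1* and *Soat1*, at a log2 fold change of 0.37 each, *Cyp46a1* was called lower (-0.33) and *Mylip* was not called (-0.54, edgeR adjusted p = 0.0692). None of the first 3 passed without culture 2, with edgeR adjusted p-values of 0.203, 0.378 and 0.0669. In the isoprenoid branch that leads away from sterols, 11 of 12 were tested and 1, *Coq2*, was called lower at -0.61.

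Markers of cell types moved with the comparison, in which 13.8% of all genes were called lower and 16.4% higher. Of the 8 neuronal markers 5 were called lower and 1 higher, and their summed level ran from 5729 to 6983 CPM in RFP and from 2536 to 5800 CPM in CRE libraries. Of the 10 markers of the oligodendrocyte lineage 6 were called lower, *Sox10* and *Pdgfra* with log2 fold changes of -3.13 and -2.60, and the sum ran from 678 to 1975 CPM in RFP and from 447 to 1981 CPM in CRE libraries. Of the 10 astrocyte markers 4 were called lower and 2 higher, with sums of 3739 to 8024 CPM and 1673 to 5368 CPM. Without culture 2, 3 neuronal, 1 oligodendrocyte and 0 astrocyte markers were called lower. Calls over all genes also fell there, from 1996 lower to 803. In the same order, 5, 3 and 4 markers were called lower without culture 1, and 4, 8 and 5 without culture 3. Over the 19 libraries 6, 7 and 4 were called lower, and 6, 8 and 5 with the GC trend removed in the libraries compared. With sums per culture 5, 4 and 2 were called lower, and *Sox10* and *Pdgfra* were not called (edgeR adjusted p = 0.204 and 0.193). The microglial markers summed to 7.70 CPM or less in every library, with 5 of 7 at a mean under 1 CPM in both groups, and the 10 endothelial and mesenchymal markers to 242 CPM or less, with *Pecam1*, *Cldn5* and *Flt1* under 1 CPM. No marker was at 0 in all libraries. The part of these shifts in the levels of the 8 genes was not tested.

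In some single libraries the marker levels of the groups crossed. These libraries were picked after their values were seen, and a cause was not tested with them. Nedd8RFP3-1 held 51.4 CPM of *Pdgfra*, a marker of oligodendrocyte precursors, less than Nedd8Cre2-4 (78.6 CPM), Nedd8Cre3-1 (146 CPM) and Nedd8Cre3-4 (174 CPM). All 8 genes were higher in Nedd8RFP3-1 than in any of these 3, *Hmgcs1* at 848 CPM against 602, 430 and 493 CPM. By the sum of the oligodendrocyte markers, 9 CRE libraries lay above Nedd8RFP3-1, and 6 of the 8 genes were higher in it than in all 9, the exceptions being *Srebf2* and *Dhcr7*. By the sum of the astrocyte markers, 9 CRE libraries lay above Nedd8RFP3-4. In that library 5 of the 8 genes were higher than in all 9, the exceptions being *Srebf2*, *Sqle* and *Insig1*. Nedd8Cre2-3 had the highest sum of neuronal markers among CRE libraries, 5800 CPM, above the 5729 CPM of Nedd8RFP3-4. All 8 genes were lower in it than in Nedd8RFP3-4, *Hmgcs1* at 605 against 881 CPM and *Lss* at 37.0 against 148 CPM. For *Hmgcs1* and *Lss* any CRE and RFP library of the 21 would give this order, since the groups did not overlap. In Nedd8Cre2-3, Nedd8Cre2-4, Nedd8Cre3-1 and Nedd8Cre3-4 each of the 8 genes except *Idi1* lay below every RFP library of the 21. Apart from *Idi1*, the orders given for these CRE libraries would therefore hold against any RFP library, whatever its marker level.

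**Figure D4:**
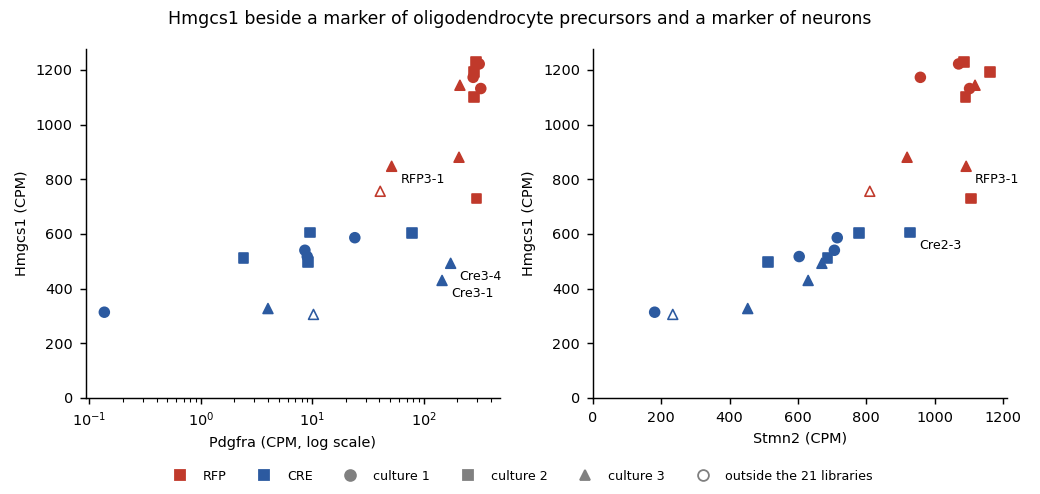
*Hmgcs1* in CPM against *Pdgfra* (left, log axis) and against the neuronal marker *Stmn2* (right, linear axis) in all 23 libraries, coloured by condition, shaped by culture and open outside the 21 compared. Nedd8RFP3-1 holds less *Pdgfra* and more *Hmgcs1* than Nedd8Cre3-1 and Nedd8Cre3-4, and Nedd8Cre2-3 has less *Hmgcs1* than every RFP library at a *Stmn2* level of 928 CPM. Every CRE library of the 21 has less *Hmgcs1* than every RFP library.

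Over all libraries of a condition, *Hmgcs1* followed the neuronal markers and the other 7 genes did not pass the test. Across the 11 CRE libraries its log2 CPM and the log2 of the summed neuronal markers had a Pearson r of 0.875 (permutation p = 6.0e-04, adjusted p = 0.0096 over 16 relations) and a Spearman rho of 0.855 (permutation p = 0.00147, adjusted p = 0.0235). Without the 2 libraries farthest from the median of the markers, Nedd8Cre1-3 and Nedd8Cre3-2, r was 0.621. Across the 10 RFP libraries r was 0.874 (permutation p = 0.00362, adjusted p = 0.029) and rho 0.709 (permutation p = 0.027, adjusted p = 0.216), and r was 0.739 without Nedd8RFP3-4 and Nedd8RFP2-4. *Srebf2* had an r of -0.748 in CRE libraries (permutation p = 0.0135, adjusted p = 0.0721), which was -0.459 without Nedd8Cre1-3 and Nedd8Cre3-2. In RFP libraries its r was 0.139, and 0.911 without Nedd8RFP3-4 and Nedd8RFP2-4. *Lss* had an r of -0.289 in CRE and -0.088 in RFP libraries, and *Fdft1* of -0.568 and -0.304, with adjusted permutation p-values from 0.22 to 0.934. Without the same libraries *Lss* had an r of -0.776 and 0.641, and *Fdft1* of -0.732 and 0.355. The r of *Dhcr7* in RFP libraries went from -0.028 to 0.744. Values without 2 libraries were not tested, and in RFP libraries *Srebf2* and *Dhcr7* then lay above the 0.739 of *Hmgcs1*. The tests were two-sided with 100000 resamples, and libraries of 1 culture are not fully independent. Of the CRE libraries compared, Nedd8Cre1-3 and Nedd8Cre3-2 also had the highest correlations of counts with GC content (0.742 and 0.105). Among the RFP libraries compared, Nedd8RFP2-4 had the highest (0.401), while Nedd8RFP3-4 stood at -0.251. The part of GC content in these relations was not tested.

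Across the 19 libraries, with log2 CPM centred within each condition, 26 of the 28 pairs of the 8 genes had a Pearson r above 0, with a median of 0.38. These are descriptions over libraries that share cultures and differ in depth, and the same share over all pairs of genes is not given. The closest pair was *Fdft1* and *Insig1* (r = 0.81), followed by *Fdft1* and *Lss* (r = 0.72), and the pairs below 0 were *Hmgcs1* with *Lss* (r = -0.37) and *Hmgcs1* with *Fdft1* (r = -0.20). *Hmgcs1* thus had the lowest r with the mean of the 8, of which it is itself a part, at 0.19 against 0.61 to 0.84 for the others.

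Of 14298 other genes with a mean of at least 1 CPM, those with the highest r to the mean of the 8 were *Washc4* (r = 0.81), *Stard4* (0.81), *Acly* (0.79), *Snhg6* (0.78), *Slc20a1* (0.77), *Peli1* (0.77), *Nsdhl* (0.76), *Chmp3* (0.76), *Cyp51* (0.76) and *Erg28* (0.75). Of these 10, *Nsdhl*, *Cyp51* and *Erg28* are enzymes of the pathway, and *Stard4* and *Acly* stand in its neighbouring lists. *Cyp51*, not called between the conditions, therefore varied with the 8 genes from library to library within them. The 16 other enzymes had a median r of 0.57, against -0.01 over all genes searched. In the 21 libraries, centred on both condition and culture, so with both the libraries and the centring changed, *Acly* alone of the 10 remained among the 10 highest, at an r of 0.79.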

How the data were processed

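RNA of 23 libraries was sequenced from stranded mRNA libraries. According to the submitters' processing notes, reads were converted with bcl2fastq 2.20.0.422, aligned with STAR 2.7.8a to GRCm39 and counted with featureCounts 1.5.0-p1. The authors deposited raw counts per Ensembl gene, without normalization. The strand setting and the treatment of multiply mapping reads are not given in the sources used here, so counts of overlapping genes are uncertain. Symbols, positions and the length of the canonical transcript came from the GENCODE annotation of GRCm39 in a later release.

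The 21 libraries of the study's abundance table, 11 CRE and 10 RFP, were compared without covariates, as none are named for the study's PyDESeq2 comparison. The study's Methods instead remove Nedd8Cre1-3 and Nedd8Cre3-3 from that comparison, which leaves 10 CRE and 11 RFP libraries, and this set was an alternative. R 4.3.3 with edgeR 4.0.16 was used, with filterByExpr, TMM factors, a robust quasi-likelihood fit and adjustment after Benjamini-Hochberg for all genes that passed the filter. CPM values carry TMM factors over all 23 libraries. DESeq2 1.42.0 and limma 3.58.1 were alternatives. The script was tested on simulated data. No pair of libraries of 1 group agreed within sampling noise. Intervals cover the spread between libraries.

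Named are the 8 genes, the other synthesis enzymes, called genes of 5 more lists with *Insig2*, *Srebf1*, *Scap* and *Fbxw7* whatever their value, and the 10 genes most like the 8. Some genes that this rule takes are not reported here, though the counts of their lists include them. Markers and genes outside this rule were named after their values were seen. The members and lists were chosen with earlier results of these data known. Of 17 alternatives, 2 were added after seeing the data, the GC correction and the culture block over the 19 libraries. The correlations with neuronal markers were also added then.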

Additional observations from a re-analysis of the deposited data

Results flagged for a closer look

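Of 49 genes named for the comparison, 2 had 1 RFP library far from the other 9, where chance alone sets apart about 1 in 20 groups. *Hsd17b7*, an enzyme of sterol synthesis, stood at 113 CPM in Nedd8RFP3-1, above 86.6 to 100.0 CPM in the others. *Rdh11*, an SREBP2 target outside synthesis, stood at 68.1 CPM in Nedd8RFP2-4, below 83.2 to 99.9 CPM in the others. Without Nedd8RFP2-4 and Nedd8Cre1-3, in the 19 libraries, *Rdh11* kept a log2 fold change of -0.64 and *Hsd17b7* one of -0.76. None of the 8 genes was set apart in this way in RFP libraries, and the 11 CRE libraries were too many for this test.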

How the results depend on the processing

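All 8 genes had a log2 fold change below 0 under each of the 17 alternatives. Between 5 and 8 of them were called lower and 0 higher. *Hmgcs1*, *Idi1*, *Fdft1*, *Lss* and *Dhcr7* were called in all of these, *Sqle* in 15, *Insig1* in 11 and *Srebf2* in 9. Leaving out cultures in turn gave 5 to 7 of the 8 and 6 to 12 of the other 16 enzymes called lower, the lowest without culture 2, which leaves 13 libraries. Over all genes, cultures left out gave 803 to 1823 called lower and 1311 to 1907 higher, against 1996 and 2374. With each library's GC trend removed, 3056 were called lower in the 21 and 3371 in the 19 libraries (2453 and 2418 higher). Library totals alone gave 1533 lower and 2949 higher, and no filter on low counts 2553 and 4367. The cause of these shifts was not tested.

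With the culture number as replicate block, 8 of the 8 genes (*Srebf2* at an edgeR adjusted p of 0.0408) and 12 of the 16 enzymes were called lower, and with the library number as replicate block 7 and 12. In the 21 libraries same-numbered cultures shared deviations across genes with an r of 0.03, 0.04 and 0.14. Not every culture there correlated best with its own number. Over the 19 libraries r was 0.06, 0.19 and 0.08, and every culture correlated best with its own number. These values do not settle whether the numbers mark pairs, and the main comparison did not pair the cultures. With the culture block over the 19 libraries, 8 of the 8 genes and 14 of the 16 enzymes were called lower. Of the 10 genes most like the 8, 1 remained in the 21 libraries centred on condition and culture, which changed the libraries and the centring together.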
